A study of Homo sapiens with 12 samples.

Results

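The 10 genes described here are 9 members of the S100 family (S100A2, S100A4, S100A6, S100A10, S100A11, S100A13, S100A14, S100A16 and S100P) and ANXA2, out of 59424 genes in the deposited tables. They were chosen with results of these data in view, because S100A10, the partner of ANXA2, rose strongly with GALNT7 overexpression. The overexpression values of the 10 genes are therefore given as a description without a test, and the tests are those of the knockdown. RNA was sequenced from 12 libraries of established prostate cancer cell lines, in 4 groups of 3 biological replicates. CWR22Rv1 cells carried a lentiviral control shRNA (shControl) or a lentiviral shRNA against GALNT7 (GALNT7 KD). DU145 cells carried a lentiviral negative control open reading frame (OE control) or a lentiviral GALNT7 open reading frame (GALNT7 OE). All 4 groups were stable lines made by transduction, controls included, and whether each was a pool or a clone is not given in the sources used here. If the replicates were cultures of 1 line each, the p-values measure the spread between those cultures. GALNT7 encodes a Golgi enzyme that adds N-acetylgalactosamine to proteins in the early steps of O-glycosylation.

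S100 proteins are small calcium-binding proteins with EF-hand motifs, usually found as dimers. On binding calcium most of them expose a surface that grips a target protein, while some are also secreted and bind cell surface receptors. S100A10 is the exception that has lost calcium binding: it is held permanently in the open shape and forms a complex with ANXA2, a calcium-dependent phospholipid-binding protein of the plasma membrane. The ANXA2 and S100A10 complex links membranes to the actin cytoskeleton, carries channels to the cell surface and binds plasminogen at the surface of tumour cells. S100A10 protein is unstable without ANXA2, so the level of the protein need not follow the level of the RNA.

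Of the 9 S100 genes, 8 lie within the S100 gene cluster of chromosome 1 on the minus strand. S100A10 (ENSG00000197747, chr1:151982915-151994390) is at one end of it, and S100A11 (ENSG00000163191, chr1:152032506-152047907) is the next S100 gene. S100A6 (chr1:153534599-153536244), S100A4 (chr1:153543613-153550136), S100A2 (chr1:153561108-153567890), S100A16 (chr1:153606886-153613145), S100A14 (chr1:153614255-153616986) and S100A13 (chr1:153618787-153631360) follow further along. S100P lies apart on chromosome 4 (chr4:6693069-6697170) and ANXA2 on chromosome 15 (ENSG00000182718, chr15:60347134-60402883). All positions are of GRCh38 in GENCODE 29. The upstream sequences of the 4 members that the overexpression values turn on (S100A10, its partner ANXA2, its neighbour S100A11, and S100A16, which was close to absent in one cell line) are shown as far as they lie outside annotated exons, except for S100A10. They come from RefSeq (GRCh38.p14), run 5′ to 3′ on the minus strand, and have in capitals the motifs that were searched on both strands: the TATA box as TATAAA, the GC box as GGGCGG, the CCAAT box by those letters, the AP-1 site as TGANTCA, the GAS element as TTCNNNGAA and the E-box as CACGTG. No motif contains another.
S100A10, chr1:151994009-151994038: acgctctgtctgGGGCGGgcgaggcctctg
S100A11, chr1:152037036-152037254: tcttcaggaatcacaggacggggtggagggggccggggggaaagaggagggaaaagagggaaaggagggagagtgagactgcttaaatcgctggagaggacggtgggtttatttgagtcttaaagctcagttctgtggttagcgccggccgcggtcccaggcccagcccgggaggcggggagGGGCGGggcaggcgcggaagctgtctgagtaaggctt
S100A16, chr1:153609356-153609605: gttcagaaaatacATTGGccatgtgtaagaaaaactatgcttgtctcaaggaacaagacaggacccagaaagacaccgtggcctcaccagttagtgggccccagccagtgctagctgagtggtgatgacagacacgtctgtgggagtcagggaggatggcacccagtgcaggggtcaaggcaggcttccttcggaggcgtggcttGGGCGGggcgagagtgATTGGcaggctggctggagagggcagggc
ANXA2, chr15:60398044-60398236: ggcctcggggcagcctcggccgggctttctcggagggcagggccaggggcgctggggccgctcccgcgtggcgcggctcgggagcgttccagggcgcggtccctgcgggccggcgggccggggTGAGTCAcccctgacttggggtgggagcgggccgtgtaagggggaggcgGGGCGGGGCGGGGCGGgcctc
All 250 bases before the start of S100A10 lie in annotated exon sequence, so only 30 bases around its GC box are shown. RefSeq gives S100A16 a pair of starts, and the stretch before the other one, which held none of the motifs, is not shown. The window of 250 bases before to 50 after the RefSeq start held GGGCGG in 6 of the 14 windows of the members (1 each of ANXA2, S100A10, S100A11, S100A13, S100A16 and S100A6), a share close to the 45.0% of all 35116 windows. TATAAA was found in 4 of the 14 windows, for ANXA2, S100A13, S100A4 and S100P (11.5% of all windows), TGANTCA in 2, for ANXA2 and S100A2 (7.71%), and CCAAT in 2, for S100A13 and S100A16 (34.6%). TTCNNNGAA and CACGTG occurred in none of the 14 windows of the members, and in 7.66% and 7.26% of all windows. Only the letters were matched, so these are descriptions of the windows and not binding sites.

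Values are the deposited normalised counts, the reads on a gene divided by a size factor of the library. The depth was 18364512 to 22264533 reads in CWR22Rv1 and 21628718 to 24356910 in DU145. Each cell line was scaled by itself, so no size of a difference between the lines is taken from these values. Both lines are named together for which genes were measurable, the order of the members, shares of reads and ratios within a library. In such bulk libraries fewer expressing cells and less RNA per cell cannot be told apart. GALNT7 itself was 862, 1042 and 1093 in shControl and 481, 501 and 399.7 in GALNT7 KD, a log2 difference of -1.11 (SE 0.129, limma adjusted p=0.0051). In DU145 it was 1051, 928 and 913 in OE control and 1988, 2221 and 2334 in GALNT7 OE, a log2 difference of 1.18 (SE 0.0863, limma adjusted p=8.0e-05). The luminal marker KLK3 was at 339 or above in each CWR22Rv1 library and at 0 in all DU145 libraries. The summed level of 8 basal or mesenchymal markers was 57693 to 66683 in DU145, although the basal keratins KRT5 and KRT17 were at or near 0 there.

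The members were unequally abundant, and the order differed between the cell lines. Per kb of transcript (the median length of the principal transcripts), S100A11, which binds ANXA1 at membranes, led in shControl cells at 4619 ± 126 (SD, n=3) normalised counts. S100A13, which takes part in the release of growth factors that have no signal peptide, followed at 1853 ± 97.5 per kb. S100A10 (403 ± 39.9 per kb) and S100A6 (346 ± 30.5 per kb) overlapped in their libraries, and ANXA2 (223 ± 22.0 per kb) and S100P (65.0 ± 8.15 per kb) were lower. The same order held in GALNT7 KD, where S100A10 and S100A6 again overlapped. In DU145 the highest level was that of ANXA2, at 18724 ± 265 per kb in OE control. S100A6 (8918 ± 145), S100A11 (7125 ± 90.7), S100A16 (3213 ± 88.0), S100A13 (2274 ± 17.2) and S100A10 (1637 ± 24.3) followed in that order per kb, with no overlap between neighbours. With GALNT7 OE, S100A10 stood at 7562 ± 80.8 per kb, above S100A16 (4612 ± 68.6) and S100A13 (3207 ± 122). The 10 genes together took 0.0242% to 0.0248% of the reads in shControl and 0.0296% to 0.0300% in GALNT7 KD. In DU145 they took 0.193% to 0.199% in OE control and 0.301% to 0.311% in GALNT7 OE.

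**Figure D1:**
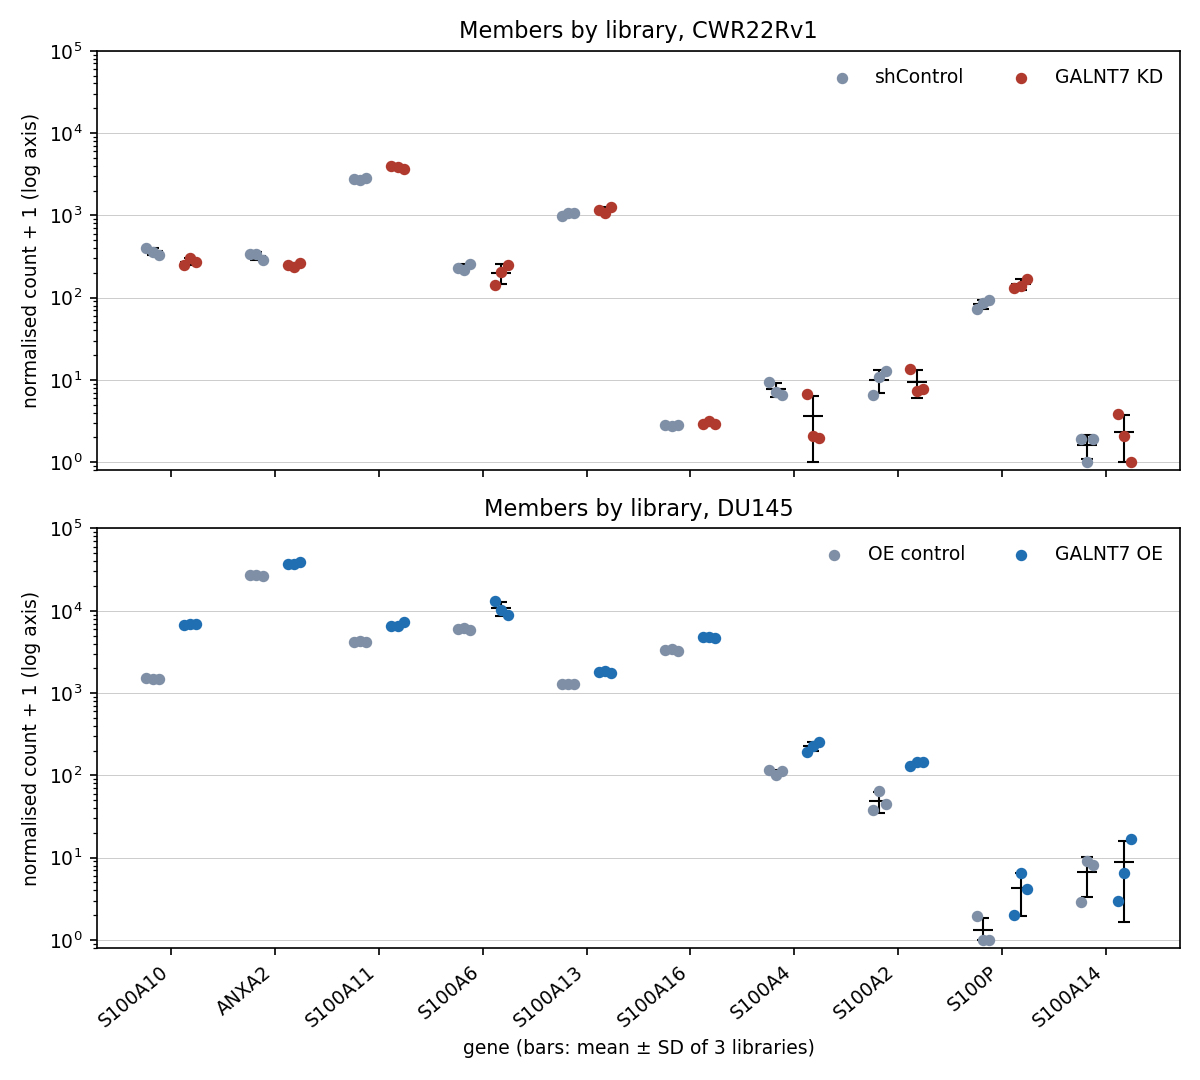
Normalised count plus 1 (log axis) of each of the 10 members in each library, with CWR22Rv1 above and DU145 below; points are libraries and bars the mean ± SD of 3 libraries. In DU145 the GALNT7 OE points of S100A10 lie between 6792 and 6934 against 1462 to 1503 in OE control, while in CWR22Rv1 the S100A10 and ANXA2 points lie slightly lower in GALNT7 KD and those of S100A11 and S100P higher.

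GALNT7 knockdown asks whether the genes respond to less GALNT7 in CWR22Rv1 cells. Of the 10 members, 7 reached the mean of 5 normalised counts that a test required. S100A11 and S100P rose and 5 did not pass the threshold, against 9.06% of all 17906 genes tested that were called (5.28% higher and 3.79% lower). S100A10 and ANXA2 lay lower in every GALNT7 KD library than in any shControl library, as 15.6% of all genes tested did (32.5% in either direction), but did not pass the test. The median log2 difference of the 7 members was -0.08, against -0.01 for all genes tested.

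S100A10 was 405, 361 and 333 in shControl and 250.4, 301 and 267 in GALNT7 KD, so that the groups did not overlap. The log2 difference was -0.42 (SE 0.119, limma adjusted p=0.074). DESeq2 on the recovered reads gave an adjusted p of 0.039, which is past the threshold, and the limma adjusted p ranged up to 0.21 with 1 library left out. ANXA2 was 342, 338 and 285 in shControl and 250.4, 235 and 266 in GALNT7 KD, again without overlap. The log2 difference was -0.36 (SE 0.114, limma adjusted p=0.10).

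S100A11 was 2749, 2667 and 2815 in shControl and 3981, 3843 and 3659 in GALNT7 KD. All 3 GALNT7 KD libraries lay above all shControl libraries, the rise was 1.40 fold and the log2 difference was 0.48 (SE 0.052, limma adjusted p=0.0040). The call held with each of the 6 libraries left out (limma adjusted p of 0.0088 to 0.027). S100P, a secreted ligand of the receptor AGER that also binds the membrane linker ezrin, was 71.9, 84.9 and 92.5 in shControl and 129, 138 and 169 in GALNT7 KD. This rise was 1.74 fold, with a log2 difference of 0.79 (SE 0.168, limma adjusted p=0.035). The S100P call was lost with any 1 of the 6 libraries left out (limma adjusted p of 0.067 to 0.11) and without the filter on low values (limma adjusted p=0.056).

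S100A13 was 980.0, 1073 and 1077 in shControl and 1156, 1067 and 1246 in GALNT7 KD, with 1 library of the latter among the controls (log2 difference 0.15, SE 0.082, limma adjusted p=0.31). S100A6, a partner of the ubiquitin ligase adaptor CACYBP, was 227, 216 and 255 in shControl and 141, 206 and 248 in GALNT7 KD (log2 difference -0.26, SE 0.212, limma adjusted p=0.48). Only GALNT7 KD replicate 1 lay far below the controls. S100A2, a nuclear S100 protein that binds p53, was between 5.60 and 12.6 in the 6 libraries (log2 difference -0.08, SE 0.436, limma adjusted p=0.94). The remaining members were too low to test in CWR22Rv1. S100A4, a partner of non-muscle myosin known from metastasis, had 6 to 9 reads per library in shControl and 1 to 6 in GALNT7 KD. S100A14 had 0 to 3 reads in each library, and S100A16 had 2 reads in each.

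In DU145 the question was the response to added GALNT7. Of the 10 members, 9 reached a mean of 5, and 8 of these were higher in all GALNT7 OE libraries than in all OE control libraries. Over all 18705 genes tested, 28.2% were higher without overlap and 27.1% lower (55.3% in all), and limma called 43.5%. The members were chosen on this contrast, so nothing is read from their count. Nor did the split of all calls hold: 52.8% of the genes called were higher with the deposited scaling and 41.6% with the 75th percentile scaling, which moved the median of all genes by -0.10. The 8 members were higher without overlap under both other scalings too.

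S100A10 was 1503, 1462 and 1497 in OE control and 6792, 6896 and 6934 in GALNT7 OE. The spread within each group was small against the 4.62 fold difference between them, and the log2 difference was 2.21 (SE 0.040). By log2 difference it stood 48th from the top of the 13637 genes with a mean of at least 50. By absolute log2 difference it stood 467th of all 18705 genes tested. S100A10 was chosen for this rise, so both ranks are descriptions only. Its partner ANXA2 was 27179.9, 27329 and 26603 in OE control and 36543, 37017 and 38874 in GALNT7 OE. This is 1.39 fold higher (log2 difference 0.47, SE 0.031), the smallest difference among the 8 members with the deposited scaling. With quantile normalisation the log2 difference was 0.55, above those of S100A13 (0.39) and S100A16 (0.43).

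The other abundant members of the cluster on chromosome 1 had smaller log2 differences than S100A10. S100A11 was 4197, 4294 and 4206 in OE control and 6517, 6604 and 7248 in GALNT7 OE (log2 difference 0.68, SE 0.051). It was the one member past the threshold in knockdown under each leave-out, and it was higher in the treated libraries of both cell lines. S100A6 was 6006, 6097 and 5902 in OE control and 12983, 10327 and 8982 in GALNT7 OE (log2 difference 0.83, SE 0.122). Its GALNT7 OE libraries spread more than those of any other abundant member. S100A16, a member of the family with wide tissue expression, was 3322, 3428 and 3246 in OE control and 4861, 4764 and 4722 in GALNT7 OE (log2 difference 0.52, SE 0.041). S100A13 was 1271, 1279 and 1291 in OE control and 1806, 1874 and 1737 in GALNT7 OE (log2 difference 0.49, SE 0.054).

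The less abundant S100A4 was 114, 99.2 and 113 in OE control and 193, 225 and 252 in GALNT7 OE (log2 difference 1.03, SE 0.139). S100A2 was 37.2, 64.4 and 43.3 in OE control and 130.3, 142 and 143 in GALNT7 OE (log2 difference 1.54, SE 0.219), the second largest difference of the members. S100A14, an epithelial S100 protein, was 1.91, 8.18 and 7.05 in OE control and 2.00, 5.54 and 15.7 in GALNT7 OE, so that the groups overlapped. S100P had 0 to 1 reads per library in OE control and 1 to 6 in GALNT7 OE and was not fitted. S100P was thus measurable in CWR22Rv1 and close to the floor of 3 reads in DU145, and S100A16 the other way round. The reads of S100A4 and S100A13 may be shared with the overlapping genes S100A3 and AL162258.1 on the same strand. Over the 8 genes the range was 0.47 to 2.21, and the median of the 9 genes fitted was 0.68. Both only describe the contrast on which the group was chosen.

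**Figure D2:**
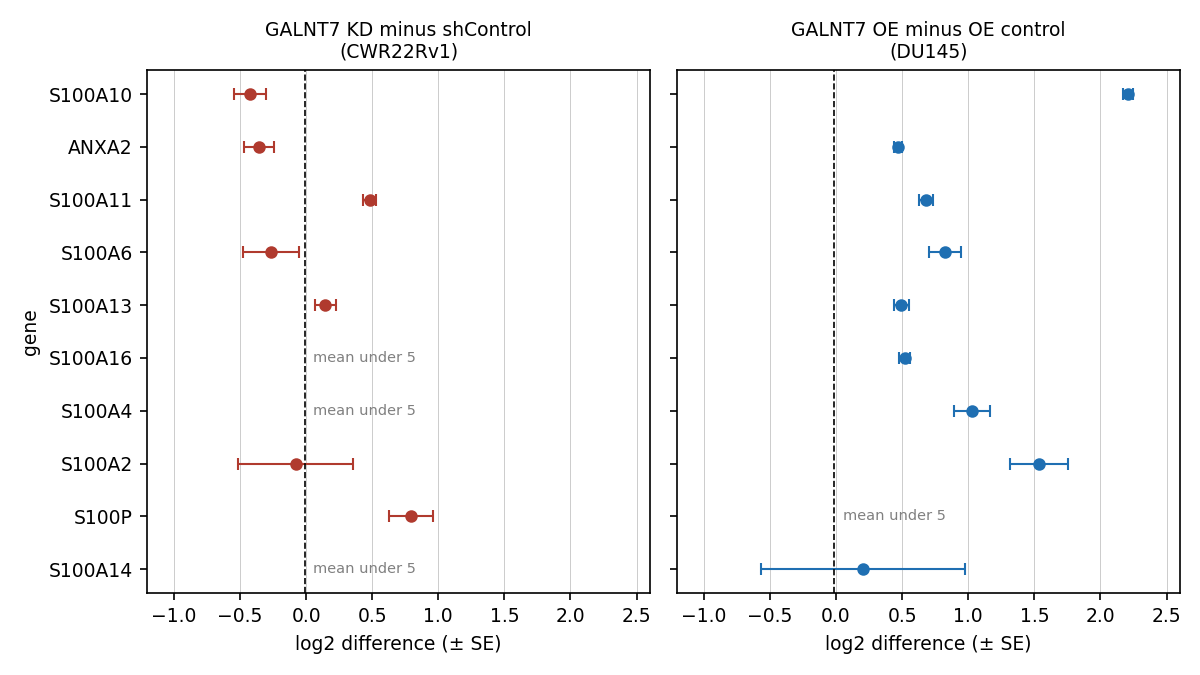
Log2 difference of treated minus control libraries (horizontal axis, ± SE) for the 10 members, with knockdown in CWR22Rv1 on the left and overexpression in DU145 on the right; the dashed line is the median of all genes tested, and members with a mean under 5 have no point. S100A10 stands farthest to the right at 2.21 in overexpression and lies at -0.42 in knockdown, while S100A11 is above 0 in both.

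S100A10 and ANXA2 work as a complex, and the ratio of their counts in a library does not depend on its size factor. The ratio of normalised counts was 1.19, 1.07 and 1.17 in shControl and 1.00, 1.28 and 1.00 in GALNT7 KD. These overlapped, and the log2 difference was -0.07 (SE 0.128, two-sided exact permutation test, p=0.8, where 3 against 3 allow no p under 0.1). In OE control the ratio was 0.0553, 0.0535 and 0.0563, and in GALNT7 OE 0.186, 0.186 and 0.178. It was thus 3.33 fold higher in GALNT7 OE, as a description, with S100A10 rising more than ANXA2. Per kb of transcript the ratio was 1.59 to 2.04 over the 6 CWR22Rv1 libraries. It was 0.0850 to 0.0894 per kb in OE control and 0.283 to 0.296 in GALNT7 OE, so ANXA2 RNA outnumbered S100A10 RNA in each DU145 library.

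**Figure D3:**
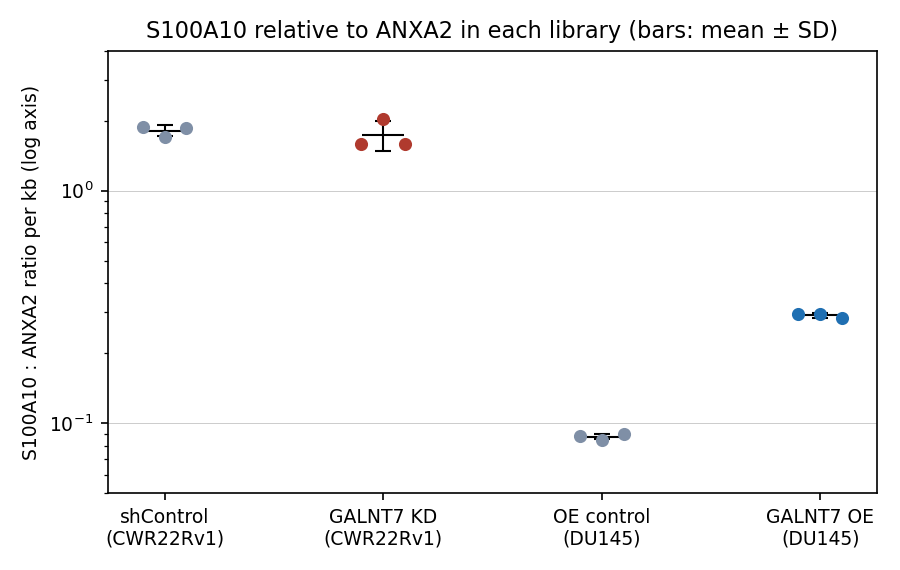
Ratio of S100A10 to ANXA2 normalised counts per kb of transcript (log axis) in each of the 12 libraries; points are libraries and bars the mean ± SD of 3. The ratio lies between 1.59 and 2.04 in CWR22Rv1, between 0.0850 and 0.0894 in OE control and between 0.283 and 0.296 in GALNT7 OE.

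The S100 cluster runs from S100A10 to S100A1 over 1649125 bases (chr1:151982915-153632039), with 86 genes in the table, of which 17 are S100 genes and 69 are not. Position was not used to choose the members. Of the 69 other genes 4 could be tested in DU145, where 43.5% of all genes tested were called. IVL, a precursor of the cornified envelope of skin cells, was called higher. IVL had a normalised count of 1.91, 1.02 and 1.01 in OE control and 8.32 to 16.8 in GALNT7 OE (log2 difference 2.50, SE 0.462, limma adjusted p=0.0047). In CWR22Rv1 3 of the 69 could be tested; limma called 0, although 1 had an unadjusted p under 0.05. That gene, FLG-AS1, was named after its values were seen: it was 67.2, 92.8 and 88.8 in shControl and 481, 630.4 and 131 in GALNT7 KD, and edgeR and DESeq2 called it. Of the S100 genes of the cluster that are not members, 2 could be tested in DU145, and S100A9, a subunit of calprotectin, was the one called. It fell from 155, 151 and 159 in OE control to 59.1, 52.7 and 60.8 in GALNT7 OE (log2 difference -1.42, SE 0.129, limma adjusted p=0.00020). S100A3, the immediate neighbour of S100A4, was 52.5, 48.1 and 21.2 in OE control and 49.1, 27.7 and 38.8 in GALNT7 OE (log2 difference -0.01, limma adjusted p=0.99). The genes of the cluster thus did not all differ in the same direction. Over the whole of chromosome 1 the median log2 difference was 0.04 in knockdown and -0.01 in overexpression. For all genes tested it was -0.01 in both. In knockdown 143 of the 1721 chromosome 1 genes tested were called higher and 39 lower (5.28% and 3.79% of all genes tested). In overexpression 479 of 1815 were called higher and 383 lower (22.9% and 20.5% of all genes tested). Whether this bears on the members was not tested.

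**Figure D4:**
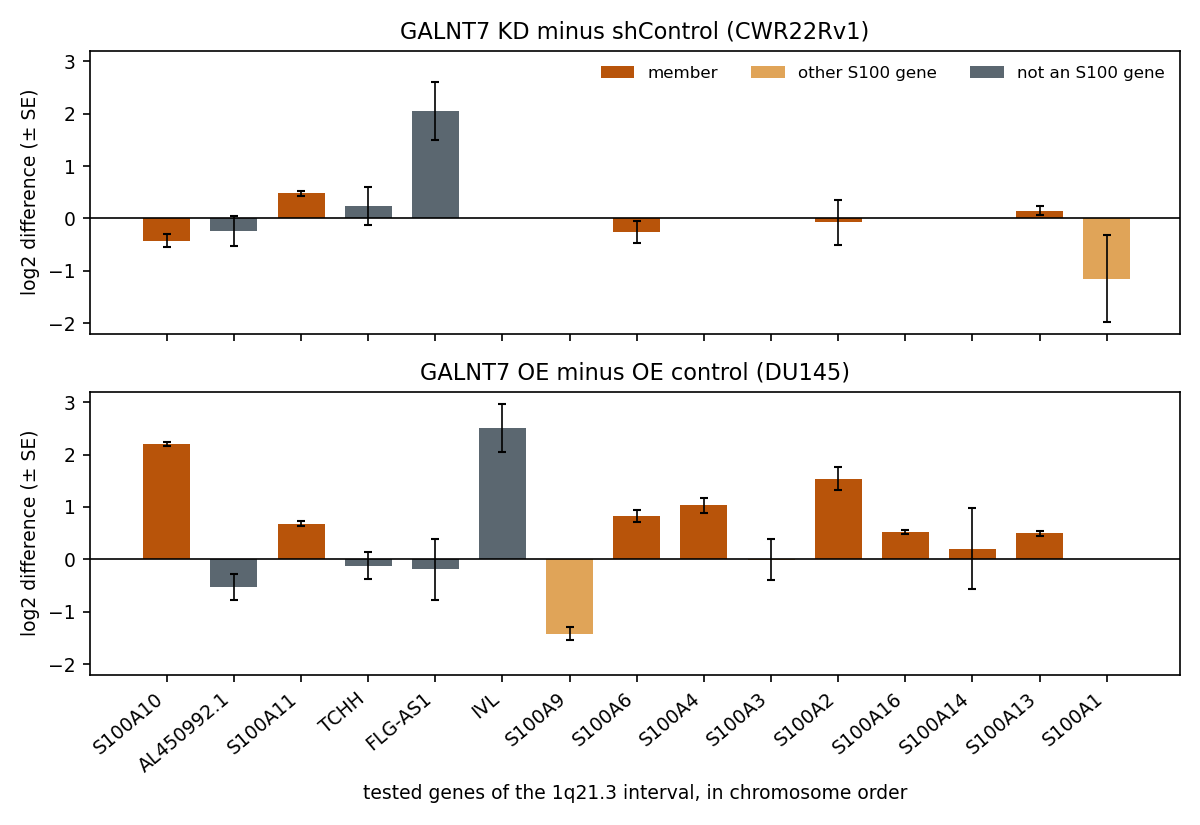
Log2 difference (vertical axis, ± SE) of the tested genes of the chromosome 1 S100 cluster, drawn in chromosome order, for knockdown in CWR22Rv1 above and overexpression in DU145 below; bars are coloured by member, other S100 gene or other gene, and a gap is a gene with a mean under 5 in that line. In overexpression 8 member bars lie above 0, from 0.20 for S100A14 to 2.21 for S100A10, with S100A9 at -1.42 between them.

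ANXA1, ANXA7 and ANXA11, relatives of ANXA2, were called higher in both cell lines, but each lost its knockdown call in at least 2 leave-outs. Of 12 other annexins 7 could be tested in knockdown, of which 4 rose and 1 fell (9.06% of all genes tested were called). ANXA6, an annexin of late endosomes, was 1374, 1265 and 1397 in shControl and 2363, 2451 and 2162 in GALNT7 KD (log2 difference 0.79, SE 0.072, limma adjusted p=0.0026). ANXA11 (log2 difference 0.47, limma adjusted p=0.013), ANXA1, a regulator of inflammation (1.08, limma adjusted p=0.039), and ANXA7 (0.22, limma adjusted p=0.032) rose and ANXA9 fell (-0.68, limma adjusted p=0.043). Of these 5 calls, that of ANXA6 held with each library left out. ANXA11 was lost in 2 of the 6 leave-outs, ANXA1 in 5 and ANXA7 and ANXA9 in all 6. In overexpression 10 annexins could be tested, 6 rose and none fell (22.9% of all genes tested rose and 20.5% fell). ANXA1 rose from 6175, 6195 and 6396 to 8960.1, 9015 and 9633 (log2 difference 0.56, SE 0.042, limma adjusted p=8.9e-05). ANXA8L1 (0.59), ANXA7 (0.32), ANXA5 (0.25), ANXA11 (0.24) and ANXA3 (0.19) were the others, of which ANXA3 was lost in 5 of the 6 leave-outs and under both other scalings, and ANXA11 under both other scalings. ANXA6 was 0.02 on the log2 scale in overexpression (limma adjusted p=0.78). The median over the annexins tested was 0.22 in knockdown and 0.25 in overexpression.

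The plasminogen system is the protease pathway that S100A10 serves at the cell surface, where the activators PLAT and PLAU turn plasminogen into plasmin. Of its 10 genes 7 could be tested in each line. In knockdown 3 rose and 1 fell (9.06% of all genes tested were called), and in overexpression 1 rose and 3 fell (43.5% of all genes tested were called). PLAU, the urokinase activator, was 24047, 23951 and 24666 in OE control and 12315, 13142 and 12678 in GALNT7 OE, a fall of 0.93 on the log2 scale (SE 0.034, limma adjusted p=5.2e-06). In CWR22Rv1 PLAU was low and not called (limma adjusted p=0.73). PLAT, the tissue activator, fell in DU145 from 96.4, 155 and 105 to 31.1, 41.6 and 49.3 (log2 difference -1.52, SE 0.255, limma adjusted p=0.0031). It was also lower in knockdown, from 97.1, 86.6 and 103 to 31.9, 64.0 and 39.5 (log2 difference -1.12, SE 0.270, limma adjusted p=0.049), but this call was lost in 5 of the 6 leave-outs. SERPINE2, a protease inhibitor of urokinase and thrombin, moved in opposite directions. It rose from 978, 972 and 991 to 1577, 1451 and 1655 in knockdown (log2 difference 0.67, SE 0.069, limma adjusted p=0.0035), and fell from 674, 600.3 and 609 to 286, 258 and 305 in overexpression (-1.15, SE 0.0975, limma adjusted p=0.00015). ENO1, a glycolytic enzyme that also binds plasminogen at the surface, rose in overexpression (log2 difference 0.49, SE 0.019, limma adjusted p=6.8e-06). In knockdown ENO1 (0.15, limma adjusted p=0.026) and the urokinase receptor PLAUR (0.68, limma adjusted p=0.047) were called higher, but ENO1 was lost in 5 and PLAUR in all 6 of the leave-outs. PLG, which encodes plasminogen itself, was between 0 and 5.60 in all 12 libraries.

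Of the 12 partners of the S100A10 and ANXA2 complex, 8 could be tested in overexpression, where 3 rose and 2 fell against 43.5% of all genes tested that were called. AHNAK, a giant scaffold protein that the complex anchors at the membrane, was 8044, 8413 and 9846 in OE control and 13013, 19544 and 13346 in GALNT7 OE (log2 difference 0.78, SE 0.162, limma adjusted p=0.0076). HLTF, a DNA translocase, was 1.70 fold higher (limma adjusted p=0.00023) and DLC1, a GTPase-activating protein that competes with ANXA2 for S100A10, 1.38 fold higher (limma adjusted p=0.0093). CTSB, the cysteine protease cathepsin B, fell from 41857, 42326 and 40350.2 to 14989, 15315 and 15027 (log2 difference -1.46, SE 0.029, limma adjusted p=8.0e-07). In knockdown CTSB rose from 2618, 2707 and 2733 to 3481, 3319.6 and 3603 (0.37, SE 0.051, limma adjusted p=0.0098), a call lost without GALNT7 KD replicate 1 (limma adjusted p=0.0502). ASIC1, an acid-sensing ion channel, fell in both lines, by 0.51 on the log2 scale in overexpression (limma adjusted p=0.0029) and by 0.37 in knockdown (limma adjusted p=0.018, lost in 4 of the 6 leave-outs). CTSB and ASIC1 were the 2 of 7 tested partners called in knockdown (9.06% of all genes tested were called).

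Among 14 partners of the other S100 members, 11 could be tested in each line. In overexpression 4 rose and 2 fell, against 43.5% of all genes tested that were called. CACYBP, the S100A6 partner, was 1453, 1386 and 1486 in OE control and 2603, 2490.4 and 2937 in GALNT7 OE (log2 difference 0.89, SE 0.074, limma adjusted p=0.00014). SUGT1, a co-chaperone that also binds S100A6, was 1.80 fold higher (limma adjusted p=0.00022), and EZR, which encodes the S100P partner ezrin, 1.39 fold higher (limma adjusted p=0.00038). NCL, which encodes nucleolin, a partner of S100A11, rose from 8738, 8562 and 8629.6 to 14527, 15268 and 15833 (log2 difference 0.81, SE 0.040, limma adjusted p=1.4e-05). MYH9, the myosin heavy chain that S100A4 binds, fell by 0.37 on the log2 scale (limma adjusted p=0.0047) and the receptor ERBB2 by 0.32 (limma adjusted p=0.0030). In knockdown NCL was the one gene of the 11 called, where 9.06% of all genes tested were called. It fell by 0.19 on the log2 scale (limma adjusted p=0.019). The NCL call was lost in 4 of the 6 leave-outs and with quantile normalisation (limma adjusted p=0.12). AGER, the receptor of several secreted S100 proteins, was 41.0, 19.4 and 60.5 in OE control and 19.0, 14.8 and 3.15 in GALNT7 OE (limma adjusted p=0.074).

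**Figure D5:**
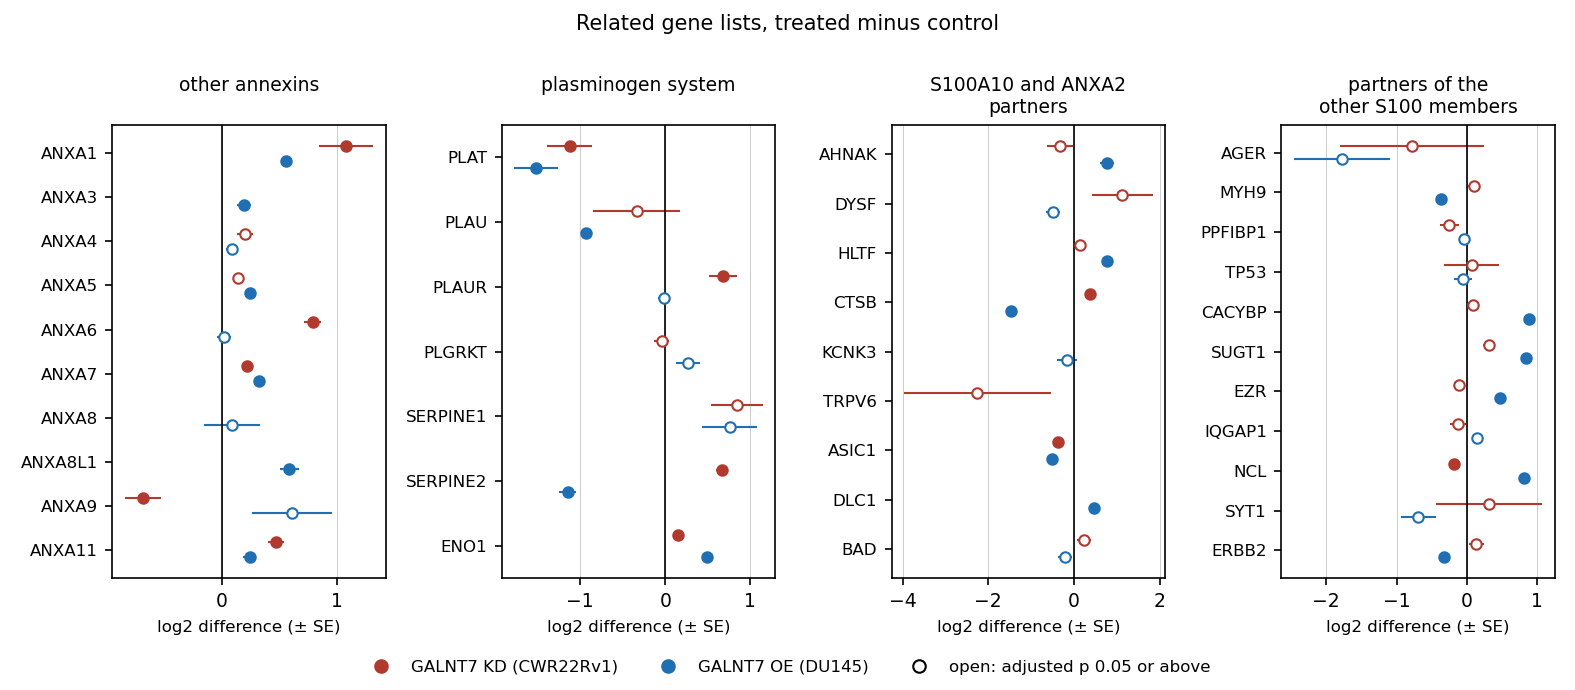
Log2 difference (horizontal axis, ± SE) of the tested genes of 4 related lists, knockdown in CWR22Rv1 in red and overexpression in DU145 in blue; filled points have a limma adjusted p under 0.05. CTSB, SERPINE2 and NCL have filled points on opposite sides of 0, those of CTSB at 0.37 and -1.46 and those of SERPINE2 at 0.67 and -1.15.

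The genes whose pattern was most like that of S100A10 were sought among 11815 genes with a mean of at least 50 in both lines. Likeness was the root mean square difference over the 12 libraries, on the log2 scale relative to the control mean of the line. The nearest were FOXM1, a forkhead transcription factor (0.148), RAD51AP1 (0.152), KIF18B, a kinesin (0.155), PARPBP, a PARP1-binding protein (0.158), and AURKA, a protein kinase (0.175). Of these, FOXM1, RAD51AP1 and PARPBP lie on chromosome 12, KIF18B on chromosome 17 and AURKA on chromosome 20. FOXM1 was 3.85 fold and AURKA 4.40 fold higher in GALNT7 OE, against 4.62 fold for S100A10, and their ratios of GALNT7 KD to shControl were 0.757 and 0.913, against 0.744. Of the other members that could be placed, S100A6 ranked 688th, ANXA2 1850th, S100A11 2091st and S100A13 2347th of the 11815. None of these was among the genes nearest to S100A10. The measure includes the GALNT7 OE libraries, on which S100A10 was chosen. A smaller overexpression difference by itself makes a member less like S100A10, so nothing further is read from these ranks. S100A2, S100A4, S100A14, S100A16 and S100P did not reach a mean of 50 in both lines, so they could not be placed.

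Markers of cell identity differed between the groups as well. In GALNT7 OE 4 of 6 tested basal or mesenchymal markers rose and 2 fell (43.5% of all genes tested were called), and their summed level was 65692 to 66683 against 57693 to 59111 in OE control. CAV1, a scaffold of caveolae, was 2.31 fold higher (limma adjusted p=3.2e-06) and the laminin subunit gene LAMB3 fell by 0.93 on the log2 scale (limma adjusted p=7.8e-05). The 8 stromal, endothelial and immune markers summed to 2936 to 3246 in OE control and 1102 to 1284 in GALNT7 OE. CD68, a lysosomal protein that tumour cells also make, and COL1A1 fell, PECAM1 and ACTA2 did not pass the test, and PTPRC and CD3E were at or near 0. All 3 luminal markers that could be tested in DU145 fell (20.5% of all genes tested fell). The STEAP2 call among them held in 3 of the 6 leave-outs. In GALNT7 KD 3 of 8 tested luminal markers rose and 1 fell (9.06% of all genes tested were called). KLK3 rose (2.06 fold, limma adjusted p=0.0037) and TMPRSS2 fell by 1.52 on the log2 scale (limma adjusted p=0.0074). The part of these shifts in the values of the members was not tested.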

How the data were processed

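RNA was sequenced from 12 libraries, 3 biological replicates for each of shControl, GALNT7 KD, OE control and GALNT7 OE (polyadenylated RNA, strand kept). The authors deposited normalised counts (a signal of reads divided by a size factor) for 59424 Ensembl identifiers, 1 table per cell line. Per the labels, the submitters' processing notes name R 3.5.3, FastQC, Salmon, DESeq2 and hg38. The annotation release is not given in the sources used here. Each value was a whole multiple of what 1 read is worth (100% whole within 0.001 reads), which gave the depths and whole reads. GENCODE 29 held 94.4% of the identifiers.

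The members and gene lists were chosen with earlier results of these data known. Each line was fitted with limma 3.58.1 (R 4.3.3, eBayes with trend) on the log2 of the normalised count plus 1. Genes needed a mean of 5 or more over the 6 libraries, and p-values had Benjamini-Hochberg adjustment over all genes tested, with a threshold of 0.05. Log2 differences on this scale understate the change of low genes. Fold differences of genes are ratios of the mean normalised counts, without the added 1. Named genes were GALNT7, the members, the 5 genes most like S100A10, and up to 6 genes per list past the threshold with the largest difference and a mean of at least 50. ANXA3, ANXA5, IVL, FLG-AS1, S100A1, S100A3, AGER, PLG and the genes of the closing observations fall outside this rule and were named after their values were seen. The values of some list genes are not reported here. The lists held other S100 genes, other annexins, the plasminogen system, partners, fused-type S100 genes, copies of the members and identity markers. Alternatives were other pseudocounts (0.5 and 5), filters (none and 50) and scalings, a replicate block, eBayes without trend, a threshold of 0.01, each library left out, and edgeR 4.0.16 and DESeq2 1.42.0 on the recovered reads. The fits were tested on simulated data.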

Additional observations from a re-analysis of the deposited data

How the results depend on the processing

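The number of genes called in knockdown moved from 1623 to 1002 with the replicate block, 2642 with DESeq2, 996 with eBayes without trend, 392 at an adjusted p of 0.01, and 539 to 1336 with 1 library left out. In overexpression it moved from 8132 to 5303 at 0.01. The 2 members called in knockdown became 1 without the filter on low values, at 0.01 and in each leave-out (1 to 1), since S100P was lost and S100A11 kept. With the replicate block 10 of the listed genes were called in knockdown against 17. S100A2, which did not pass the test, changed sign in knockdown with quantile normalisation (0.039) and ranged from -0.36 to 0.13 over the leave-outs. The cause was not tested. The labels give the groups the same replicate numbers without saying that a number marks a shared culture or day, and same-numbered libraries deviated together only weakly (correlations of -0.01 to 0.07 in knockdown and 0.02 to 0.04 in overexpression), so the block is an alternative and the libraries were treated as unpaired. Each library correlated best with its own number in 2 of 6 cases in knockdown and 6 of 6 in overexpression, a hint from the data and not the design; the block left 7405 genes called in overexpression. It changed the call of no member. In overexpression the log2 differences of S100A10 (2.11 to 2.22), S100A11 (0.58 to 0.71) and ANXA2 (0.37 to 0.55) moved within these ranges over the alternatives.

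Depth limits S100A14, S100A4, S100A16 and S100P where they have a few reads per library. With 3 libraries a group, a member that missed the threshold is not shown to be unchanged. The libraries are of 1 line each, so cell line and direction of the GALNT7 change cannot be told apart when knockdown and overexpression are set side by side.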

Other observations

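Further relatives of the members were mostly low. Of 7 fused-type S100 genes, which carry an S100 domain in a large structural protein of skin, TCHH was the one that could be tested. Its mean normalised count was 24.7 in OE control and 22.5 in GALNT7 OE (limma adjusted p=0.74), and its limma adjusted p in knockdown was 0.72. Limma, edgeR and DESeq2 called no gene of this list, and none had an unadjusted p under 0.05. Copies of the members took few reads. ANXA2P2, a processed copy of ANXA2, was 2.86, 0 and 2.02 in OE control and 8.02, 12.9 and 5.24 in GALNT7 OE beside 26603 or more for ANXA2. Limma called it (adjusted p=0.047) and edgeR did not (adjusted p=0.051), and reads of ANXA2 could be assigned to it. ANXA2R, a gene named as a receptor of ANXA2, was 419 in OE control and 368 in GALNT7 OE (means, limma adjusted p=0.13), and S100PBP, an S100P-binding protein gene, 767 and 940.1 (limma adjusted p=0.25). S100A1, the gene at the end of the cluster that overlaps S100A13 on the other strand, was 33.6, 7.07 and 25.6 in shControl and 13.5, 14.9 and 1.93 in GALNT7 KD (limma adjusted p=0.43).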
